A study of Homo sapiens with 6 samples.

Results

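Nucleolar ribosome biogenesis factors are the proteins that transcribe, cut, modify and fold ribosomal RNA before it becomes part of a ribosome. They were examined in MM.1S, a human multiple myeloma cell line, with and without CD38. The members were the protein-coding genes whose symbols begin with NOP, UTP, RRP, NOL or NOC followed by a digit, the RNA polymerase I subunits POLR1A to POLR1H, and NOLC1. The rule used names alone and no measured value, and it found 46 of the 60671 genes in the table. Of these, 45 passed the filter on low counts and were tested. The exception was UTP14C, which had 0 counts in all 6 libraries. NOL3, NOL4 and NOL4L fit the rule by symbol, but they are not known as ribosome biogenesis factors, so they were counted and also described apart.

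The comparison was between 3 WT and 3 CD38 KO libraries. WT was MM.1S carrying GFP and click beetle red luciferase from a lentivirus. CD38 KO was 1 clone of the same tagged line, named E9 in the titles, in which CD38 had been disrupted with CRISPR/Cas9. Live cells of both were sorted, CD38-positive from WT and CD38-negative from the clone, and each library began with 10 ng of total RNA. Because the knockout is a single clone, effects of losing CD38 and other traits of that clone cannot be told apart, and the p-values weigh the gap from WT only against variation among sorted replicates.

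Ribosome production starts in the nucleolus, where RNA polymerase I transcribes a long precursor of ribosomal RNA. Small nucleolar ribonucleoproteins (snoRNPs) guide chemical modification of that precursor, and a large assembly called the small subunit processome folds and cuts it, while separate factors build the large subunit. Plasma cells and myeloma cells secrete immunoglobulin and depend on a high rate of protein synthesis, and the transcription factor MYC is a known activator of many of these genes.

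The libraries held 61515519 to 72335496 counts. CD38 was at 40.6 ± 1.90 CPM (counts scaled to the library total with TMM factors; SD, n = 3) in WT and 0.972 ± 0.322 in CD38 KO. The 9 plasma cell markers summed to 7177 to 7188 CPM in the WT libraries and 9089 to 9122 in the CD38 KO libraries, and 8 of them were above 1 CPM in both groups. Singly they went both ways, with 5 of the 9 higher and 3 lower, CD38 among the latter. Markers of other cell types were low, with 4 B cell markers summing to at most 0.178 CPM and 5 T cell markers to 2.09 to 2.36 CPM in WT, against 5.62 to 6.43 CPM in CD38 KO. Mitochondrially encoded genes took 2.63% to 2.71% of counts in WT and 6.83% to 7.30% in CD38 KO, and the part of these shifts in the results below was not tested.

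More members fell than rose in CD38 KO, and most of the changes were modest. Of the 45 tested, 19 fell, 6 rose and 20 were not past an adjusted p of 0.05 (edgeR quasi-likelihood test, Benjamini-Hochberg over all genes). Among all 20120 tested genes 44.4% were called, 21.6% lower and 22.8% higher. For members the shares were 42.2% lower and 13.3% higher. The median log2 fold change of members was -0.12, against 0.0002 over all tested genes. Among protein-coding genes alone, 28.0% were lower and 28.4% higher. Of the 6 that rose, NOL4 had 0 counts in WT and passed the filter on low counts only through CD38 KO, so it is no support for a rise of the members. Without NOL3, NOL4 and NOL4L, 19 of 42 fell and 4 rose.

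The fall was at least 2-fold for 1 member only, UTP20, whereas 5.26% of all tested genes were lower by that much. Every CD38 KO library was below every WT library for 18 members, where the share over all tested genes is 25.6%, and above every WT library for 8, where it is 26.9%. Of the 13180 tested protein-coding genes, 4091 were below and 4200 above in this way, which are larger shares. Summed over all members, the level was 3005, 2965 and 3045 CPM in the WT libraries and 2677, 2694 and 2698 CPM in the CD38 KO libraries, so that CD38 KO stood at 89.5% of WT. The summed levels of the groups did not overlap. The sum is weighted to abundant members such as NOLC1 (mean 312.3 CPM in WT, 262.1 in CD38 KO) and NOP56 (286.6 and 219.3). It does not show a fall of every member, and 20 of the 45 were not past the threshold. In bulk RNA, fewer cells expressing a gene and less RNA per cell cannot be told apart. With library size alone as the scaling, 27 members fell and 5 rose, beside 5570 lower and 3632 higher over all genes, where the TMM factors gave 4342 and 4592.

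**Figure D1:**
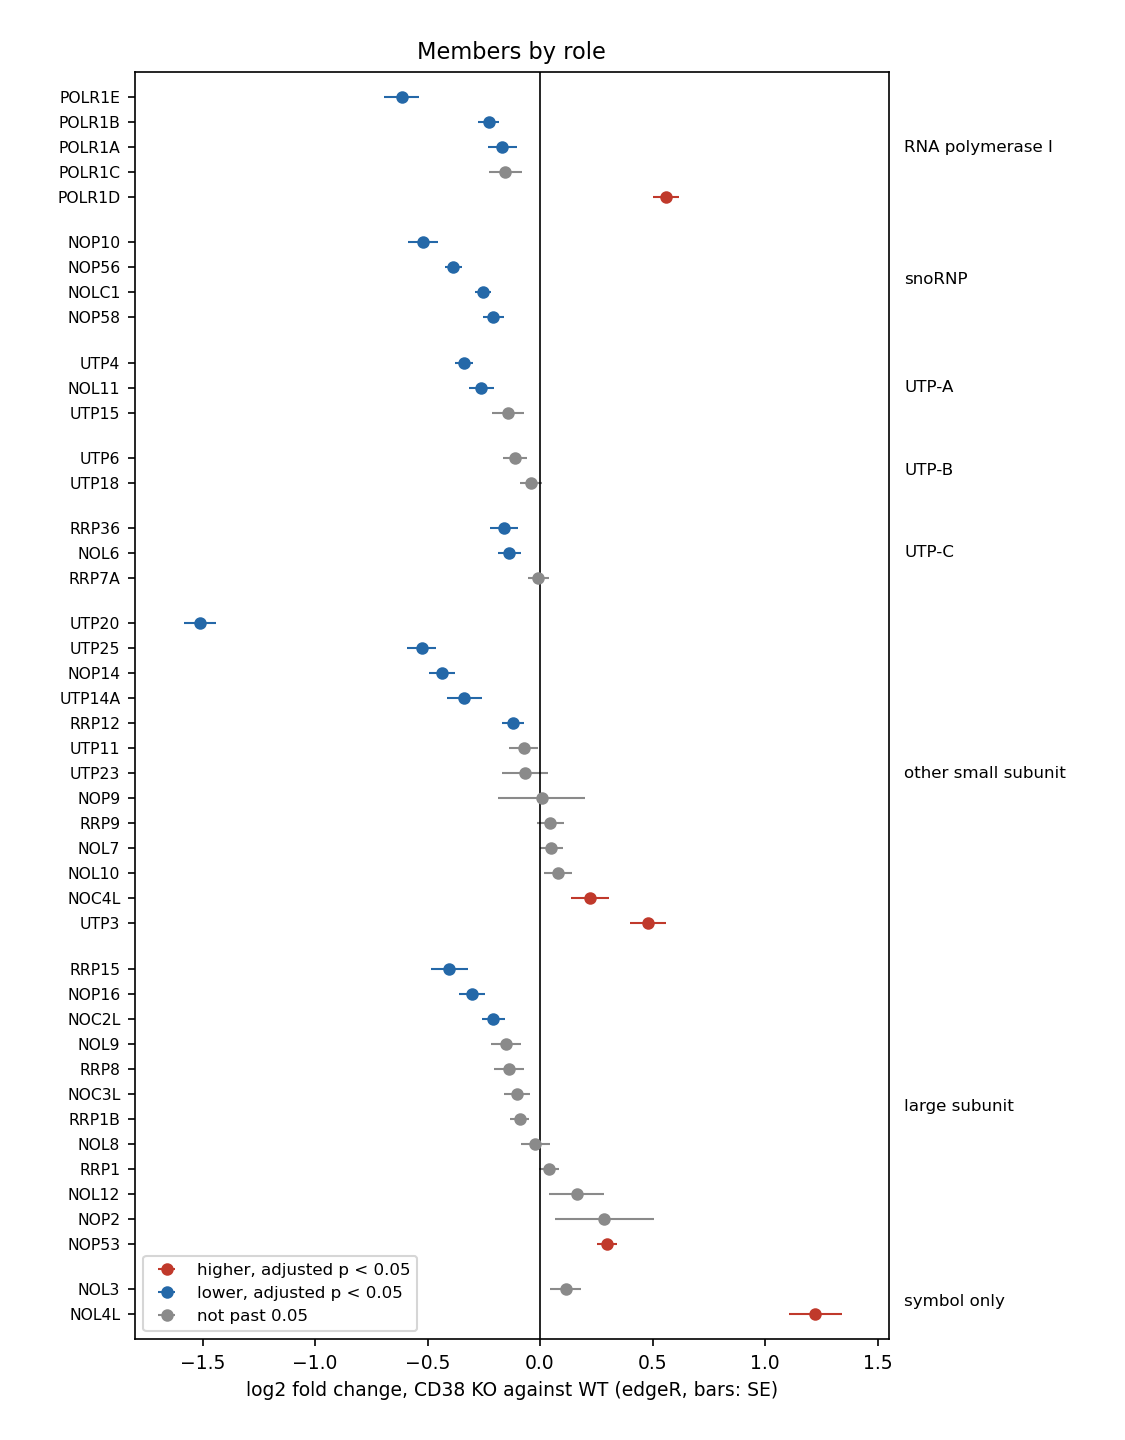
Log2 fold change of CD38 KO against WT (horizontal axis, bars show SE from edgeR) for 44 tested members grouped by role, blue for lower, red for higher and grey for not past an adjusted p of 0.05. NOL4, at 0 counts in WT, is not drawn. UTP20 lies apart at -1.51, the 4 members grouped as snoRNP are all below 0, and POLR1D is the one polymerase I subunit above 0.

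The promoters of 5 members are shown because they hold, or lack, the E-box CACGTG, a motif that MYC and other factors of its class can bind. Sequences are the 250 bases before the annotated start, 5′ to 3′ on the gene's strand, from RefSeq (GRCh38.p14), with each E-box in capitals. UTP20, UTP4, NOP10 and NOP56 fell and POLR1D rose.
UTP20 (chr12:101279855-101280104, plus strand): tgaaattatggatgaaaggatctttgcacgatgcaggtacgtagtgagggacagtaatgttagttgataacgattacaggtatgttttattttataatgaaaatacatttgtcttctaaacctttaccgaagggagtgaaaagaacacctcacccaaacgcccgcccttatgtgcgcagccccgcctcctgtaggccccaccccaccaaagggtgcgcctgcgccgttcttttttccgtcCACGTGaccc
UTP4 (chr16:69132399-69132648, plus strand): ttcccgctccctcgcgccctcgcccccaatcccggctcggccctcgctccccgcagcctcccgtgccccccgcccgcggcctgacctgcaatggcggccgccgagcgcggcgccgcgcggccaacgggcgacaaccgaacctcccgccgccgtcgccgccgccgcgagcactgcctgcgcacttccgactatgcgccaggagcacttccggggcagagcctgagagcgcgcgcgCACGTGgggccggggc
NOP10 (chr15:34343137-34343386, minus strand): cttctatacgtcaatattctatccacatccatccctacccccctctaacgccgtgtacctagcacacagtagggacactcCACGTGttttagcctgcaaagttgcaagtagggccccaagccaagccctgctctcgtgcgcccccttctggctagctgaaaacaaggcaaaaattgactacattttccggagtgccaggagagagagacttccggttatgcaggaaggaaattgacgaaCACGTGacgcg
NOP56 (chr20:2652382-2652631, plus strand): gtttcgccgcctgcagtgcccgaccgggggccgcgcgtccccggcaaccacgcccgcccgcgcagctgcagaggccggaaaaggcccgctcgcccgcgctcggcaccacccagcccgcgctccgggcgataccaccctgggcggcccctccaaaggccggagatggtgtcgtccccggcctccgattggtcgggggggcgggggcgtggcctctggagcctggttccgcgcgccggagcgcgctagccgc
POLR1D (chr13:27620493-27620742, plus strand): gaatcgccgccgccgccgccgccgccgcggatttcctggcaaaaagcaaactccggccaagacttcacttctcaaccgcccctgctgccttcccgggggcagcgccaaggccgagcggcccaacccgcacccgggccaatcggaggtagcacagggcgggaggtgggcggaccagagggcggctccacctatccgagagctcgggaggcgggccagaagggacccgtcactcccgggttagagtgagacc
The E-box began 10 bases before the start in UTP20 and 16 bases before it in UTP4. NOP10 held 2, at 170 and 11 bases before the start, and the NOP56 and POLR1D windows held none.

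Over the full windows of 300 bases (250 before and 50 after the start), 39 of 46 members had a promoter in the RefSeq table and 13 of them (33.3%) held CACGTG, a motif that reads the same on both strands. The share was 7.43% of all 27305 promoters and 9.98% of the 10572 promoters of tested protein-coding genes. It was 26 of 109 (23.9%) in the pathway partners, other ribosome biogenesis genes described further on. By call, the motif was in 7 of the 15 members that fell, 6 of the 17 that were not past the threshold and 0 of the 6 that rose. The 6 include NOL4 and NOL4L and the 17 include NOL3, which are members by symbol only. NOL4 also entered the test only through CD38 KO, so the 0 of 6 is no support for a contrast by call. All of these motif counts are counts of letters in a window, they were not tested, and they do not show binding. The transcript of MYC itself, which is on no list and was chosen after its values were seen, averaged 195.6 ± 6.66 CPM in WT and was lower, at 164.9 ± 3.55 CPM, in CD38 KO (SD, n = 3; edgeR adjusted p = 4.26e-05).

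Among the RNA polymerase I subunits, 3 of 5 fell and 1 rose, where 21.6% of all tested genes fell and 22.8% rose. POLR1E, a subunit of the heterodimer that helps the enzyme initiate and elongate, lies on chromosome 9 (37485935 to 37503697, GENCODE 29 on GRCh38). It was at 23.4, 23.0 and 25.8 CPM in WT and 16.4, 14.99 and 15.8 CPM in CD38 KO. The groups did not overlap, and POLR1E fell by 0.61 on the log2 scale (SE 0.0783, edgeR adjusted p = 1.34e-06).

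The catalytic core subunits moved less. POLR1B was at 104.6, 98.6 and 103.6 CPM in WT and 83.5, 88.6 and 90.1 CPM in CD38 KO, with no overlap (log2 fold change -0.23 ± 0.0468 SE, edgeR adjusted p = 4.10e-04). POLR1A, the largest subunit, was at 61.1, 50.1 and 58.7 CPM in WT and 49.3, 52.0 and 50.02 CPM in CD38 KO. WT replicate 2 lay within the CD38 KO range. POLR1A was called lower (log2 fold change -0.17, edgeR adjusted p = 0.0404), but leaving out WT replicate 1 or 3 gave adjusted p-values of 0.213 and 0.161, and leaving out CD38 KO replicate 1 or 3 gave 0.0915 and 0.127. With limma-voom it was 0.0573, and the 16 alternatives spanned 0.00145 to 1, the top value coming from the test against a 1.2-fold change.

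POLR1C and POLR1D form the assembly platform that polymerase I shares with polymerase III, and their values went opposite ways. POLR1D was at 32.7, 33.8 and 34.4 CPM in WT and 47.6, 49.1 and 52.1 CPM in CD38 KO, a rise to 147.6% of WT (log2 fold change 0.56 ± 0.0582 SE, edgeR adjusted p = 7.13e-08). All CD38 KO libraries were above all WT libraries. POLR1C was at 22.99, 23.9 and 22.7 CPM in WT and 21.6, 19.7 and 21.2 CPM in CD38 KO, without overlap but not past the threshold (log2 fold change -0.15, edgeR adjusted p = 0.0941).

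The rule finds no POLR1F, POLR1G or POLR1H because the table carries their older symbols. Outside the members, TWISTNB (POLR1F) averaged 43.8 ± 1.03 CPM in WT against 37.2 ± 1.78 CPM in CD38 KO. CD3EAP (POLR1G), the partner of POLR1E in its heterodimer, averaged 4.74 ± 0.458 CPM against 3.63 ± 0.353 CPM (SD, n = 3). Both fell (edgeR adjusted p = 0.00259 and 0.0381), while ZNRD1 (POLR1H) had a log2 fold change of 0.21 (adjusted p = 0.104).

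All 4 members grouped as snoRNP core and assembly proteins fell, where 21.6% of all tested genes fell. RRP9, a U3 snoRNP protein counted with the small subunit factors, was not past the threshold (log2 fold change 0.0457, edgeR adjusted p = 0.571). NOP56 and NOP58 are the paired scaffold proteins of box C/D snoRNPs, which guide methylation of ribosomal RNA. NOP56 (chromosome 20, 2652145 to 2658393) was at 291.6, 283.9 and 284.2 CPM in WT and 216.7, 220.1 and 221.0 CPM in CD38 KO. Its groups were far apart relative to their spread, with a difference of -0.39 ± 0.0375 on the log2 scale (SE; edgeR adjusted p = 2.71e-08). NOP58 was at 119.6, 117.8 and 121.5 CPM in WT and 110.2, 99.9 and 100.8 CPM in CD38 KO (log2 fold change -0.21, edgeR adjusted p = 9.22e-04). The other core proteins of these particles, FBL and SNU13, did not pass the threshold, at 0.0003 and -0.0267 on the log2 scale (edgeR adjusted p = 0.997 and 0.673).

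NOP10 is the smallest protein of the H/ACA snoRNPs, which guide pseudouridine formation and also form part of telomerase. It was at 68.2, 77.5 and 79.4 CPM in WT and 47.6, 53.7 and 55.6 CPM in CD38 KO, 69.7% of WT (log2 fold change -0.52 ± 0.0655 SE, edgeR adjusted p = 2.45e-06). Its H/ACA partners DKC1, NHP2 and GAR1 were not past the threshold, at log2 fold changes of -0.0777, -0.0111 and -0.11 (edgeR adjusted p = 0.157, 0.898 and 0.299).
NOLC1, a chaperone of both snoRNP classes in the nucleolus and Cajal bodies, had the highest CPM of the members. It was at 315.0, 311.6 and 310.4 CPM in WT and 262.7, 261.8 and 261.8 CPM in CD38 KO (log2 fold change -0.25, edgeR adjusted p = 6.84e-06), with replicates of each group close together.

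**Figure D2:**
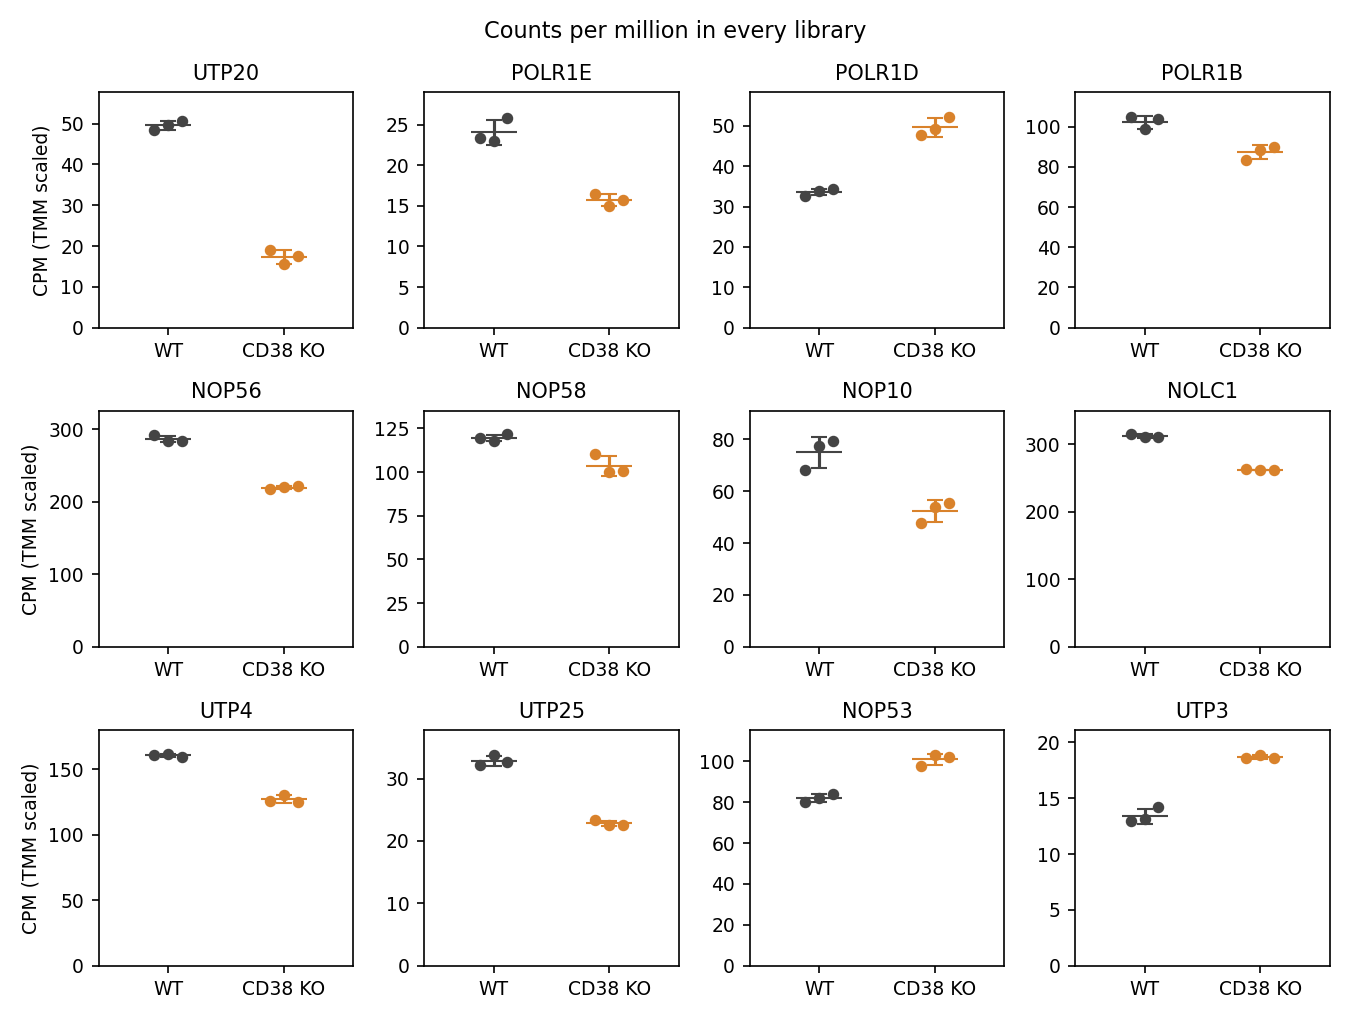
CPM in every library (points), with the mean and SD of 3 libraries (bars), for 12 members in WT and CD38 KO, each panel starting at 0. All 12 panels show groups that do not overlap, lower in CD38 KO for 9 members and higher for POLR1D, NOP53 and UTP3.

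The small subunit processome begins with the UTP-A complex, which binds the start of the nascent precursor. Of its 3 members 2 fell, where 21.6% of all tested genes fell. UTP4 was at 160.4, 161.6 and 159.3 CPM in WT and 125.4, 130.4 and 125.0 CPM in CD38 KO (log2 fold change -0.34 ± 0.0408 SE, edgeR adjusted p = 6.22e-07). NOL11 was at 57.6, 59.5 and 59.1 CPM in WT and 49.1, 46.3 and 51.7 CPM in CD38 KO (log2 fold change -0.26, edgeR adjusted p = 4.61e-04). Neither gene had overlapping groups. UTP15 was at 30.02, 31.7 and 32.6 CPM in WT and 28.4, 26.3 and 30.6 CPM in CD38 KO, with overlap and no call (edgeR adjusted p = 0.107).

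Neither UTP-B member passed the threshold. UTP6 was at 67.7, 70.7 and 71.97 CPM in WT and 63.3, 68.5 and 62.8 CPM in CD38 KO (log2 fold change -0.11 ± 0.0516 SE, edgeR adjusted p = 0.0883). UTP18 was at 67.7, 69.2 and 71.8 CPM in WT and 67.1, 69.0 and 66.7 CPM in CD38 KO (-0.0405 ± 0.0485 SE, adjusted p = 0.538). In both genes at least 1 CD38 KO library lay inside the WT range.
In the UTP-C complex, NOL6 and RRP36 were called lower by small margins, at log2 fold changes of -0.14 and -0.16 (edgeR adjusted p = 0.0389 and 0.0375), and RRP7A was at -0.0068 (adjusted p = 0.924). For NOL6 the adjusted p was 0.120 and 0.163 with WT replicate 1 or 3 left out, and 0.131 and 0.0825 with CD38 KO replicate 2 or 3 left out, and it spanned 0.00125 to 1 over the alternatives. For RRP36 it was 0.150 and 0.164 with WT replicate 2 or 3 left out, 0.151 and 0.0953 with CD38 KO replicate 1 or 3 left out and 0.0546 with limma-voom, and it spanned 0.00274 to 1.

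UTP20, a very large HEAT-repeat scaffold of the processome, changed more than any other member that was expressed in both groups and known in ribosome biogenesis. The gene lies on chromosome 12 (101280109 to 101386616). It was at 48.3, 49.6 and 50.7 CPM in WT and 18.96, 15.6 and 17.5 CPM in CD38 KO, 35.1% of WT. Every CD38 KO library was under 20 CPM while the lowest WT library was above 48. On the log2 scale the change was -1.51 ± 0.0712 (SE; edgeR adjusted p = 2.96e-13), between -1.60 and -1.44 over the 16 alternatives.

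Of the other 12 tested small subunit members, 4 fell and 2 rose, where 21.6% of all tested genes fell and 22.8% rose. UTP25 was at 32.2, 33.8 and 32.6 CPM in WT and 23.3, 22.5 and 22.6 CPM in CD38 KO (log2 fold change -0.53, edgeR adjusted p = 8.78e-07). NOP14, which works with NOC4L in the processome, was at 46.1, 49.2 and 46.5 CPM in WT and 33.8, 36.1 and 34.95 CPM in CD38 KO (-0.44, adjusted p = 2.28e-06). UTP14A, the activator of the helicase DHX37, was at 23.7, 25.99 and 22.4 CPM in WT and 19.4, 17.8 and 19.9 CPM in CD38 KO (-0.34, adjusted p = 0.00144). The groups did not overlap for any of the 3.

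The antisense transcript NOP14-AS1, which covers 17.1% of the exon bases of NOP14, also fell (log2 fold change -0.74, edgeR adjusted p = 2.91e-05). Whether counting used strand is not stated, so reads of that stretch cannot be told apart. RRP12, an export factor of both subunits, was called lower at -0.12 (edgeR adjusted p = 0.0485), and its adjusted p was 0.0507 with DESeq2 and 0.0592 with limma-voom. Leaving out WT replicate 1 or 3 raised it to 0.249 and 0.0752, leaving out each CD38 KO replicate in turn to 0.0610, 0.0605 and 0.211, and the alternatives spanned 0.00108 to 1.

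UTP3 rose, from 12.9, 13.1 and 14.2 CPM in WT to 18.6, 18.9 and 18.6 CPM in CD38 KO (log2 fold change 0.48 ± 0.0808 SE, edgeR adjusted p = 4.42e-05). Its CD38 KO libraries were all above its WT libraries. NOC4L was at 20.6, 16.9 and 16.9 CPM in WT and 20.99, 21.7 and 20.9 CPM in CD38 KO. WT replicate 1 was near the CD38 KO values. NOC4L was called higher (log2 fold change 0.22, edgeR adjusted p = 0.0374), but the adjusted p was 0.160 and 0.177 with WT replicate 2 or 3 left out, 0.0819 and 0.0585 with CD38 KO replicate 2 or 3 left out and 0.190 with library size as the only scaling. The alternatives spanned 0.00502 to 0.721. The other 6, UTP11, UTP23, NOP9, RRP9 (a U3 snoRNP protein), NOL7 and NOL10, did not pass the threshold, and their log2 fold changes ran from -0.0716 to 0.0820.

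Of the 12 large subunit factors, 3 fell, 1 rose and 8 were not past the threshold. RRP15 was at 20.5, 18.97 and 21.1 CPM in WT and 15.6, 14.3 and 15.95 CPM in CD38 KO (log2 fold change -0.40, edgeR adjusted p = 3.30e-04). NOP16 was at 44.5, 47.9 and 46.7 CPM in WT and 36.7, 39.5 and 36.7 CPM in CD38 KO (-0.30, adjusted p = 2.19e-04). NOC2L, the nucleolar partner of NOC3L, averaged 158.1 ± 12.8 CPM in WT against 136.9 ± 2.67 CPM in CD38 KO (SD, n = 3; edgeR adjusted p = 0.00219). The groups did not overlap for any of the 3, while NOC3L was not past the threshold (log2 fold change -0.10, adjusted p = 0.161).

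NOP53, which docks the RNA exosome on the maturing large subunit, rose. It was at 80.2, 81.8 and 83.98 CPM in WT and 97.8, 102.8 and 102.1 CPM in CD38 KO, 123.0% of WT (log2 fold change 0.30 ± 0.0452 SE, edgeR adjusted p = 1.27e-05), with no overlap. The remaining large subunit members were NOL8, NOL9 (an RNA kinase), NOL12, NOP2 (an rRNA methyltransferase), RRP1, RRP1B and RRP8 (also an rRNA methyltransferase). Their log2 fold changes ran from -0.15 for NOL9 to 0.29 for NOP2.

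A few members with low or 0 counts overlap other genes. NOP2 had 1.41, 1.24 and 1.49 CPM in WT and 1.89, 1.73 and 1.42 CPM in CD38 KO. This is 0.294 CPM per kb of exon in WT, against 53.1 for NOP56 and 36.3 for NOP58 on the same scale. In GENCODE 29, 54.4% of the exon bases of NOP2 belong also to a gene model on the same strand, AC006064.6. NOP9, at 0.424 CPM per kb in WT, shares 36.9% of its exon bases with other genes, and NOL12, at 1.46 CPM per kb, shares 21.96%. UTP14C, a retrotransposed copy of UTP14A, shares 74.2% with ALG11 on the same strand. It had 0 counts in every library, which allows up to 3 counts or 0.0504 CPM, while ALG11 rose, averaging 6.55 ± 0.410 CPM in WT against 10.8 ± 0.351 CPM in CD38 KO (SD, n = 3; edgeR adjusted p = 6.08e-06). Reads that fit 2 genes may have been left out or split in the deposited counts, and this was not tested. The members that share 25% or more of their exon bases are NOP2, NOP9 and UTP14C, and none of them was called. Leaving them out therefore could not change the 19 that fell and 6 that rose, and says nothing of overlap in called members.

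Of the 3 members included by symbol only, 2 rose, where 22.8% of all tested genes rose. NOL4L was at 6.88, 5.57 and 6.82 CPM in WT and 16.1, 16.4 and 12.6 CPM in CD38 KO (log2 fold change 1.22 ± 0.117 SE, edgeR adjusted p = 2.70e-08). NOL4, its relative, had 0 counts in every WT library and 18, 17 and 29 counts in the CD38 KO libraries, at least 7.88-fold higher against a floor of 3 counts per WT library, and it stayed under 1 CPM. NOL3, an inhibitor of apoptosis, was not past the threshold, with a log2 fold change of 0.11 (edgeR adjusted p = 0.195). NOL4L was thus the 1 member expressed in both groups that rose at least 2-fold, and 6.00% of all tested genes were higher by that much. NOL4 is left out of that comparison because it entered the test only through the group where it is high.

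Several of the members that moved sit among genes that moved the same way. Around POLR1D on chromosome 13, 9 of the 10 nearest tested protein-coding genes were higher and their median log2 fold change was 0.67, and over all of chromosome 13 the median was 0.46. Less the median of its neighbours, POLR1D was at -0.11. Around NOP10 on chromosome 15, 8 of 10 neighbours were lower with a median of -0.53, and NOP10 less that median was at 0.0077. The median over all of chromosome 15 was -0.0009.

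Around UTP20 on chromosome 12, 6 of 10 neighbours were lower and 2 higher, with a median of -0.32, and UTP20 less that median was still at -1.19. POLR1E went against its surroundings, where 6 of 10 neighbours were higher (median 0.23). Around NOL4L, 9 of 10 neighbours were higher (median 0.26). After the chromosome's median was taken off, all 19 members that fell were still below 0 and all 6 that rose above it. With the 10 nearest genes in its place this held for 18 of 19 and 5 of 6, NOP10 and POLR1D being the exceptions. Outside chromosome 13 the members' chromosome medians lay between -0.15 (chromosome 12) and 0.10 (chromosome 22). Taking them off could therefore change few signs and decides little. The 6 include NOL4, which entered the test only through CD38 KO. Whether the copy number of these stretches differs in the clone was not tested.

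**Figure D3:**
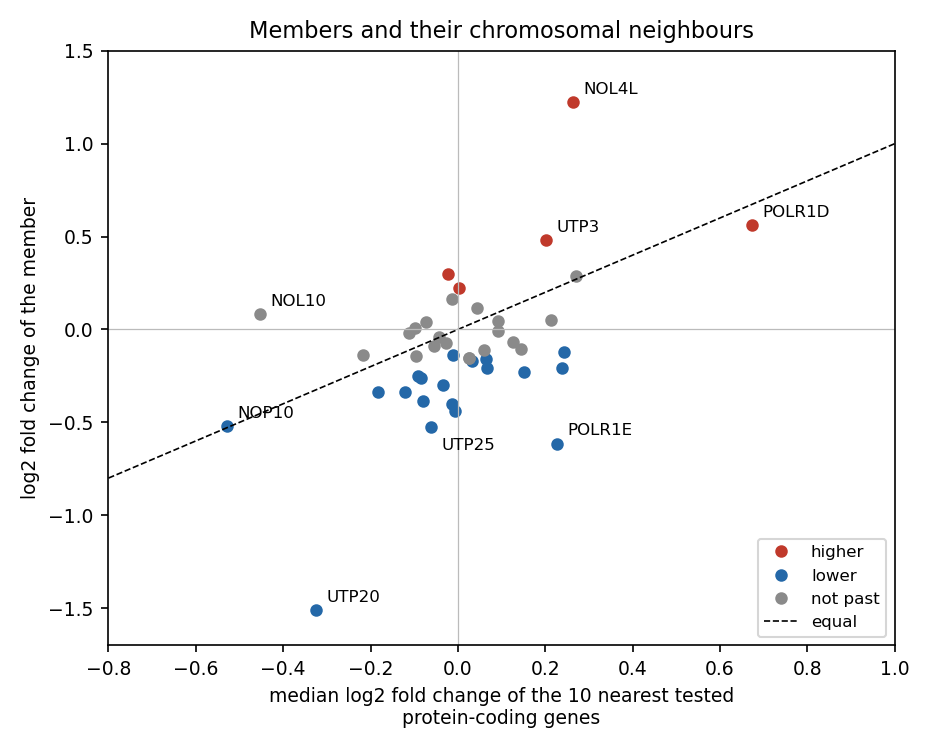
Log2 fold change of each of 44 tested members (vertical axis) against the median log2 fold change of its 10 nearest tested protein-coding genes (horizontal axis), coloured by call, with the dashed line marking equality and NOL4 not drawn. NOP10 and POLR1D lie near the dashed line, at neighbour medians of -0.53 and 0.67, while UTP20 and POLR1E lie well below it.

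Other ribosome biogenesis genes, which the rule does not take, were counted as a list of 126 pathway partners, all of them tested. Of these, 46 fell (36.5%) and 20 rose (15.9%), and the median of the 126 log2 fold changes was -0.0714. Over all tested genes 21.6% fell and 22.8% rose. By group, 16 of 32 further processome proteins fell and 3 rose, and 16 of 38 large subunit proteins fell and 5 rose. Of 12 exosome genes 5 fell and 3 rose, and of 5 abundant nucleolar proteins 2 fell and 2 rose. The other groups had shares of falls near or under that of all genes: 3 of 13 polymerase I factors fell and 1 rose, 3 of 13 helicases fell and 2 rose, and 1 of 13 snoRNP partners fell and 4 rose. HEATR1, a UTP-A scaffold that acts with UTP4, UTP15 and NOL11, averaged 123.6 ± 2.24 CPM in WT against 90.7 ± 7.44 CPM in CD38 KO (SD, n = 3; edgeR adjusted p = 4.99e-07). The other partners that fell with the smallest p were CEBPZ and NIFK, both large subunit factors, and SHQ1, an assembly chaperone of the H/ACA enzyme DKC1, at log2 fold changes of -0.46, -0.39 and -0.55. The partners that rose with the smallest p were EXOSC8, a subunit of the RNA exosome, RUVBL2 and PIH1D1, which assemble snoRNPs, and the processome protein DCAF13, at 0.59, 0.41, 0.37 and 0.47. The chromosomal neighbours of the partners were not compared with them, as was done for the members.

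The ribosomal proteins themselves had smaller shares called lower than the members, of which 42.2% fell and 13.3% rose. Among all tested genes 21.6% fell and 22.8% rose. Of 85 tested cytosolic ribosomal protein genes 18 fell (21.2%) and 10 rose (11.8%), and the median log2 fold change was -0.0290. Of 77 tested mitochondrial ribosomal protein genes 19 fell (24.7%) and 15 rose (19.5%), with a median of -0.0195. No test of the difference between these lists and the members was made.

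**Figure D4:**
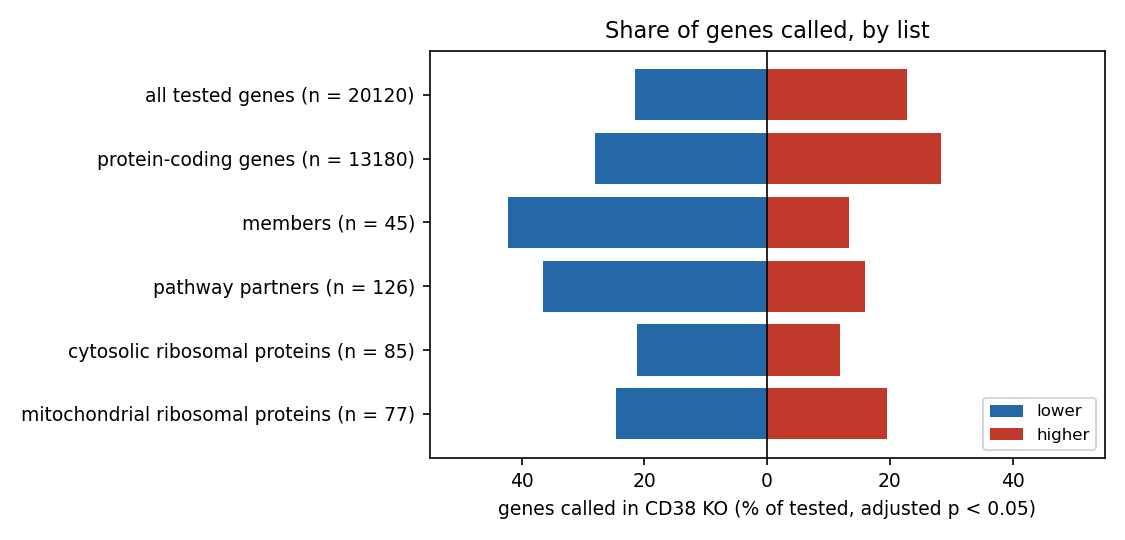
Percent of tested genes called lower (blue, to the left) and higher (red, to the right) in CD38 KO at an edgeR adjusted p under 0.05, by list, with the number tested beside each name. Members have 42.2% lower and 13.3% higher, pathway partners 36.5% and 15.9%, and all tested genes 21.6% and 22.8%.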

How the data were processed

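RNA of 6 MM.1S libraries, 3 WT and 3 CD38 KO, was analysed from 1 table of raw counts per gene deposited by the authors. STAR 2.7.9a is listed in the submitters' processing notes beside Partek and DESeq2, with no roles. For the genome build, annotation, counter and strand, nothing is stated in those notes or the labels. Of 60871 lines, 200 repeated an identifier with the same counts, which left 60671 genes. The 2 groups were compared with edgeR 4.0.16 under R 4.3.3 (TMM, filterByExpr, robust quasi-likelihood fit, no covariate), with Benjamini-Hochberg adjustment over 20120 genes and a threshold of 0.05. The procedure was tested on simulated data.

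Positions, exon overlaps and exon lengths came from GENCODE 29 (GRCh38), which may not be the annotation counted with. Neighbours were the 5 nearest tested protein-coding genes on each side. Alternatives were other factors (RLE, upper quartile, library size), other filters (none, 1 CPM in 3 libraries), DESeq2 1.42.0, limma-voom 3.58.1, a replicate block, protein-coding genes only, a test against a 1.2-fold change, and each library left out. The neighbour medians and the overlap limit of 25% were chosen after seeing the data.

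Every member could be named. Library values were set for the members with the smallest adjusted p (up to 8 higher and 12 lower), those with log2 fold changes of at least 0.58 in size and a fixed set of core proteins, and up to 4 partners in each direction were named. The members and lists were chosen with earlier results of these data known, which had included a list of MYC targets and ribosome biogenesis genes with more falls than rises, so the counts are not independent evidence. The floors of 3 counts cover counting error only, whereas SDs and SEs also hold the variation among replicates.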

Additional observations from a re-analysis of the deposited data

How the results depend on the processing

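Against a 1.2-fold change, edgeR called 5080 of 20120 genes, 2444 lower and 2636 higher, where the test of no change gave 8934. Of the 45 tested members, 7 were lower and 4 higher, where the test of no change gave 19 and 6. Of the 126 pathway partners, 7 were lower and 5 higher, where the test of no change gave 46 and 20. The falls of partners were thus close in number to their rises in the 1.2-fold test. With library size alone, 67 partners were lower and 12 higher, beside 5570 lower and 3632 higher over all genes. Over the 6 fits that each left out 1 library, 15 to 19 members were lower and 5 to 6 higher. Of 19 members that fell, 15 kept the call in every alternative except the 1.2-fold test, and 7 kept it there too; of 6 that rose, these counts were 5 and 4, both including NOL4, which had no value with a filter at 1 CPM. The replicate block gave 19 lower and 6 higher. Numbers shared between the groups did not pair the libraries (correlation of deviations 0.0337, -0.0080 and -0.0207). In the fits, the log2 fold changes that changed sign all belonged to members that were not called. With library size alone they were NOL10 (-0.0018), NOL7 (-0.0339), NOP9 (-0.0762), RRP1 (-0.0450) and RRP9 (-0.0373), and NOP9 was also negative with upper quartile factors (-0.0061), no filter (-0.0084) and limma-voom (-0.0109). RRP7A was at 0.0003 with a filter at 1 CPM. Without 1 library in turn, NOL8 ranged from -0.10 to 0.0289, NOP9 from -0.170 to 0.12, RRP7A from -0.0328 to 0.0181, RRP9 from -0.0042 to 0.0952 and UTP23 from -0.168 to 0.0064. Less the median of 10 neighbours, NOP10 was at 0.0077 and POLR1D at -0.11. The cause was not tested. Low counts limit NOL4, NOP2 and NOP9, which had at most 213 counts in a library, and why the counts are low was not tested.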

Other observations

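Pathway partners of the snoRNPs and the exosome moved in both directions. Among all tested genes 22.8% rose and 21.6% fell, and among protein-coding genes 28.4% rose and 28.0% fell. Of the 13 snoRNP partners, 4 rose (30.8%, near the share of protein-coding genes), 1 fell (7.7%) and 8 were not past the threshold. Those that rose, RUVBL2, PIH1D1, ZNHIT6 and NUFIP1, and SHQ1, which fell, are assembly factors. The other assembly factors did not pass the threshold, with RUVBL1 at -0.0664, ZNHIT3 at 0.0310 and NAF1 at 0.0708 on the log2 scale (edgeR adjusted p = 0.283, 0.768 and 0.688). All 4 members grouped as snoRNP proteins fell, and RRP9 of the U3 snoRNP was not past the threshold. RUVBL2, an ATPase of the assembly machinery, averaged 139.1 ± 7.02 CPM in WT against 185.4 ± 8.21 CPM in CD38 KO (SD, n = 3; edgeR adjusted p = 2.26e-07). SHQ1 averaged 30.6 ± 1.81 CPM in WT against 20.95 ± 1.13 CPM in CD38 KO (SD, n = 3; edgeR adjusted p = 2.34e-06). NUFIP1, which helps assemble box C/D snoRNPs, was at 152.0% of its WT level.

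Of 12 genes of the RNA exosome and its helicase, 5 fell and 3 rose. EXOSC8 was at 47.4, 48.2 and 50.8 CPM in WT and 70.98, 73.6 and 75.8 CPM in CD38 KO, with no overlap (log2 fold change 0.59, edgeR adjusted p = 5.63e-09). EXOSC3 fell by 0.43 on the log2 scale (edgeR adjusted p = 7.94e-05). The exosome helicase MTREX, which NOP53 recruits, went to 84.2% of its WT level (edgeR adjusted p = 6.97e-05), while NOP53 rose. UBTF, the factor that opens ribosomal DNA for polymerase I, averaged 116.9 ± 2.77 CPM in WT against 103.3 ± 2.81 CPM in CD38 KO (SD, n = 3; edgeR adjusted p = 0.00198), whereas the initiation factor RRN3 was not past the threshold (log2 fold change -0.0435, adjusted p = 0.559). The genes of these paragraphs other than RUVBL2, SHQ1, PIH1D1 and EXOSC8 were chosen after their values were seen. Neighbouring genes were compared for members only. Whether a regional shift, such as that of chromosome 13, has a part in the rises of EXOSC8 and NUFIP1 was not tested.

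The pseudogene NOP56P1, a near copy of NOP56, also fell. It averaged 2.11 ± 0.0689 CPM in WT against 1.42 ± 0.173 CPM in CD38 KO (SD, n = 3; edgeR adjusted p = 0.0295). Whether the counting split reads between the 2 was not tested.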
